A study of Danio rerio with 6 samples.

Results

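The genes described here were listed together as erythroid regulators and heme synthesis genes. *gata1a* and *nfe2* encode transcription factors, and *alas2*, *urod* and *fech* encode enzymes of heme synthesis. *tfr1a* and *slc25a37* encode iron importers, and *slc4a1a* and *epb41b* encode proteins of the red cell membrane. The last gene, *ca2*, encodes a carbonic anhydrase, and its change between the stages was opposite to that of the others. The genes were taken by exact gene name from a fixed list, and all 10 were found once at each stage among the 29978 genes listed. RNA had been sequenced from zebrafish hearts dissected at 48 and 56 hours post fertilization (hpf), the period in which the atrioventricular valve begins to form, with 3 pools of hearts at each stage and 30 hearts in each pool. Both stages were described alike, but the sources differ on the animals. The sample labels give the AB line, and the methods give embryos with the *myl7:EGFP* transgene, which marks heart muscle. Whether both name the same animals is not stated. The methods also state, for all animals, a treatment with phenylthiourea (PTU), which keeps embryos from forming pigment, so that both stages shared it. Since the hearts were pooled, no value belongs to a single embryo. The replicate numbers 1, 2 and 3 come from the sample labels. Reads counted on genes numbered between 14369087 and 26942838 per pool.

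A heart dissected from a living embryo holds the blood that was passing through it. At these stages that blood consists mostly of primitive erythrocytes, the first wave of red cells, which mature together in circulation. Such cells are filled with hemoglobin, and each hemoglobin needs heme, a ring of porphyrin that holds iron. The transcription factor Gata1 switches on most genes of the lineage. Iron enters the cell through the transferrin receptor and the mitochondrion through mitoferrin, the enzymes of heme synthesis build the ring partly in the mitochondrion and partly in the cytosol, and ferrochelatase inserts the iron. Many of these genes are known from zebrafish mutants with anemia that are named after wines.

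Of the 10 genes, 9 had a lower fitted value at 56 hpf than at 48 hpf, and *ca2* had a higher one. Without adjustment 9 of the 10 had a p under 0.05, beside 18.6% of all genes tested. After adjustment over all 20805 genes tested, *slc4a1a*, *epb41b*, *alas2* and *gata1a* fell and *ca2* rose, so that 5 of the 10 were called. Among all genes tested 1.08% were called, 0.211% lower at 56 hpf and 0.87% higher. A gene was called when its adjusted p was under 0.05 by limma on log2(normalized count + 1), with the replicate number as a block and Benjamini-Hochberg adjustment. Values below are normalized counts, that is, reads brought to a common library size. Differences are log2 fold changes of 56 against 48 hpf on the log2(normalized count + 1) scale. The median difference of the 10 genes was -1.44 on the log2 scale, beside -0.01 over all genes tested, and 7 of the 10 had a difference below -1, as had 5.32% of all genes tested. For 8 of the 10 genes no 48 hpf pool overlapped a 56 hpf pool, with 7 lower and 1 higher at 56 hpf. Over all genes tested this held for 24.4%, with 11.3% lower and 13.1% higher. Without replicate 2 at both stages no gene of the 10 was called by limma, beside 53 of all genes, and without replicate 1 at both stages 8 were, beside 2271. In a dissected heart, fewer red cells and less RNA in each red cell give the same lower value and cannot be told apart in these data.

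**Figure D1:**
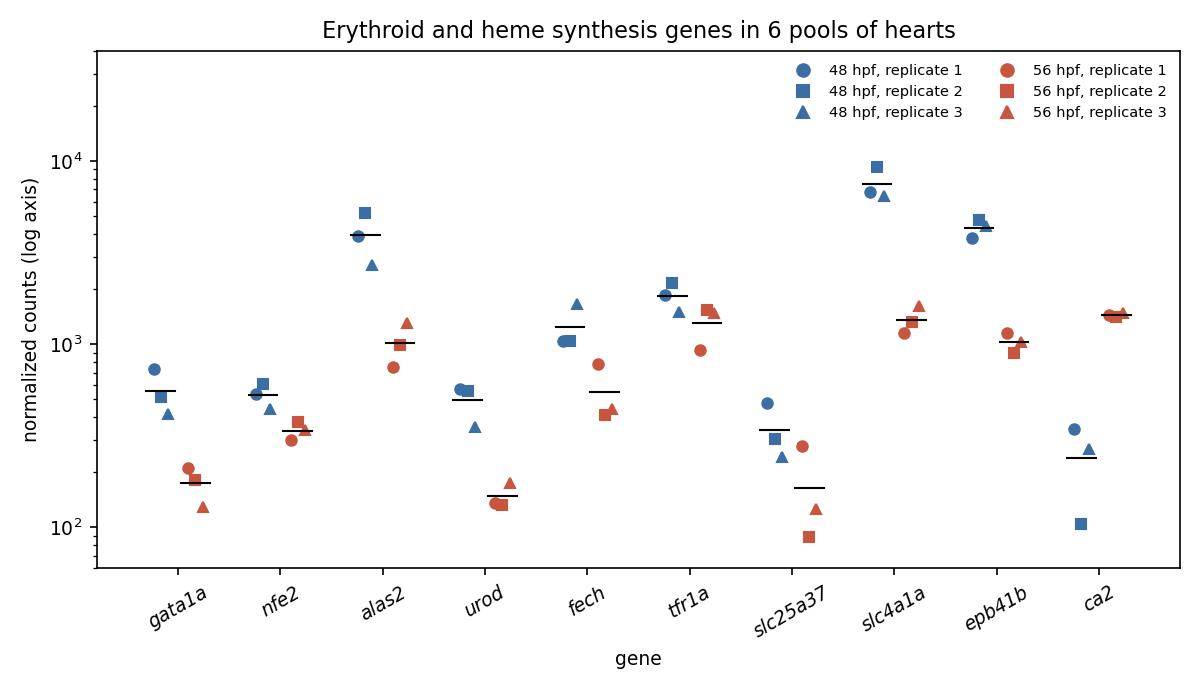
Normalized counts of the 10 genes in each pool, on a log axis. Blue marks are the 3 pools at 48 hpf and red marks the 3 pools at 56 hpf, the shape gives the replicate number, and black lines are means of 3 pools. The stages separate for 8 genes, the values overlap for *tfr1a* and *slc25a37*, and *ca2* lies between 1417 and 1477 in every 56 hpf pool.

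The transcription factors were read first. *gata1a* (ENSDARG00000013477), the master regulator of the red cell lineage, gave 735, 515 and 418 normalized counts in the 48 hpf pools, in the order of the replicate numbers, and 211, 182 and 130 in the 56 hpf pools. Every 48 hpf pool was thus above every 56 hpf pool. The mean fell from 556 ± 162 (SD, n = 3 pools) to 174 ± 41.2 (SD, n = 3), a difference of -1.66 with a standard error of 0.21 (adjusted p = 0.0267, limma). *nfe2* (ENSDARG00000020606), whose protein joins small Maf proteins to bind the regulatory regions of globin genes in mammals, had 537, 604 and 441 normalized counts at 48 hpf and 299, 375 and 340 at 56 hpf. Its stages did not overlap either, but the step was small, with a difference of -0.63 (95% interval -1.13 to -0.14, adjusted p = 0.183 from limma), and it was not called. In the fits that left out a pool or a replicate number, *gata1a* was called in 5 of 9, with adjusted p between 0.00985 and 0.19. It was not called without replicate 2 at both stages, nor without replicate 2 at 48 hpf, replicate 2 at 56 hpf or replicate 3 at 56 hpf. *nfe2* was called in none of them.

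In the same pools *gata2a*, a related GATA factor of blood progenitors and endothelium, had 481, 322 and 387 normalized counts at 48 hpf and 398, 390 and 325 at 56 hpf, a difference of -0.08. The ratio of *gata1a* to *gata2a* within a pool, on the log2 scale, was 0.61, 0.67 and 0.11 at 48 hpf and -0.91, -1.09 and -1.32 at 56 hpf, so the stages did not overlap. Of the 24 genes tested from a list of erythroid transcription regulators, 2 were called, both lower at 56 hpf, and the median difference was -0.30. The 2 were *gata1a* and *znfl2a*, a zinc finger gene (-2.71, adjusted p = 0.00838 from limma). The call of *znfl2a* was lost without replicate 2 at both stages (adjusted p = 0.0508, limma), the highest value in a range that went down to 2.98e-16 over 22 alternatives. Of the 24 genes, 17 had a difference below 0 and 7 above. Those above 0 included *klf3* (1.46, adjusted p = 0.186 from limma) and *gfi1aa* (1.97, adjusted p = 0.202 from limma), neither of them called. *gfi1aa* had few reads, with 1, 8 and 9 at 48 hpf and 21, 12 and 48 at 56 hpf. Several partners of Gata1 had values below those of 48 hpf without passing the test. Among them were *zfpm1*, which encodes the cofactor Fog1 (-0.78, adjusted p = 0.133 from limma), and *lmo2*, which encodes a bridging factor of the Gata1 complex (-0.83, adjusted p = 0.144 from limma). *ldb1a*, another bridging factor (-0.17), and *gfi1b*, a repressor of the lineage (-0.62), were not called. For *tal1*, which encodes the helix-loop-helix protein of that complex, the stages overlapped, since replicate 1 had 133 normalized counts at 48 hpf and 145 at 56 hpf, against lower 56 hpf values in replicates 2 and 3. *trim33*, the gene of the bloodless *moonshine* mutant, had a difference of -0.45 (adjusted p = 0.26 from limma).

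Of the 3 heme synthesis genes among the 10, that of the first enzyme changed most. *alas2* (ENSDARG00000038643), the erythroid form of aminolevulinate synthase, which makes the precursor of the porphyrin ring, had 3882, 5232 and 2710 normalized counts at 48 hpf and 749, 990 and 1301 at 56 hpf. The 48 hpf pool with the fewest counts still had more than the 56 hpf pool with the most. The mean was 3.89-fold lower at 56 hpf, 1013 ± 277 (SD, n = 3 pools) against 3941 ± 1262 (SD, n = 3), which gave a difference of -1.94 with a standard error of 0.30 (adjusted p = 0.0418, limma). The call was close to the threshold. It was lost with edgeR's quasi-likelihood test on the recovered reads (adjusted p = 0.0611, in a range of 3.98e-07 to 0.247 over 22 alternatives), and with a filter of at least 10 counts in every library (adjusted p = 0.0505, limma). It was also lost without replicate 2 at both stages and without replicate 2 at either stage alone.

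*urod* (ENSDARG00000006818) encodes the cytosolic uroporphyrinogen decarboxylase and is mutated in the *yquem* fish. It had 568, 559 and 354 normalized counts at 48 hpf and 136, 132 and 175 at 56 hpf. As for *alas2*, replicate 3 was the lowest pool at 48 hpf and the highest at 56 hpf. The difference was -1.71 (95% interval -2.40 to -1.03), with an adjusted p of 0.0551 from limma, just above the threshold. Over 22 alternatives the adjusted p of *urod* lay between 5.47e-05 and 0.365, and it was under 0.05 in 10 of them. *fech* (ENSDARG00000003462), the gene of ferrochelatase, had 1045, 1045 and 1654 normalized counts at 48 hpf and 784, 411 and 444 at 56 hpf. Here the order of the pools was different, with replicate 3 the highest at 48 hpf and replicate 1 the highest at 56 hpf. The difference of *fech* was -1.22 (95% interval -1.92 to -0.51, adjusted p = 0.104 from limma), and by edgeR's likelihood ratio test it was called (adjusted p = 0.0103, in a range of 0.00745 to 0.626 over 22 alternatives).

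The whole pathway was examined in its order. From a list of 11 gene names, 10 were found and all 10 were tested. Of these 9 had a difference below 0, with the pools of the stages apart for all 9, and 3 were called, each lower at 56 hpf. Over all genes tested, 11.3% lay lower at 56 hpf without overlap and 0.211% were called lower. The median difference of the 10 was -1.31. With the libraries scaled to myocardium markers *hmbsa* turned to 0.19, so that 8 of the 10 were below 0. Besides *alas2*, the called genes were *hmbsb*, which encodes a hydroxymethylbilane synthase (-2.46 with a standard error of 0.24, adjusted p = 0.0122 from limma), and *ppox*, which encodes protoporphyrinogen oxidase, the enzyme before ferrochelatase (-1.86 with a standard error of 0.22, adjusted p = 0.0195, limma). *hmbsb* had 743, 574 and 620 normalized counts at 48 hpf and 168, 106 and 87.4 at 56 hpf. *ppox* had 1311, 1613 and 1431 at 48 hpf and 444, 332 and 422 at 56 hpf. For both genes the lowest 48 hpf pool was thus well above the highest 56 hpf pool. When pools or replicate numbers were left out in 9 fits, each was called in 8 and was lost without replicate 2 at both stages (adjusted p = 0.0598 for *hmbsb* and 0.168 for *ppox*, limma). Over 22 alternatives the adjusted p ran from 7.17e-13 to 0.0598 for *hmbsb* and from 1e-08 to 0.256 for *ppox*. Other genes of the pathway had differences of -1.37 for *alad*, -1.24 for *uros* and -1.18 for *cpox*, with adjusted p of 0.0645, 0.078 and 0.103 from limma. They were not called. Of the 7 pathway genes that are not among the 10 described here, 2 were called and the median difference was -1.24.

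The exception in the pathway was *alas1*, the aminolevulinate synthase of cells at large. It had 943, 891 and 555 normalized counts at 48 hpf and 1079, 1357 and 1784 at 56 hpf, with no overlap between the stages. The difference was 0.83 with a standard error of 0.30 (adjusted p = 0.214, limma), and it was not called. Set against *alas1* in the same pool, *alas2* stood at 2.04, 2.55 and 2.29 on the log2 scale at 48 hpf and at -0.53, -0.45 and -0.46 at 56 hpf. This ratio moved by -2.77 with little spread between pools (SD 0.26 at 48 hpf and 0.04 at 56 hpf, n = 3 each). The other gene pair of the pathway behaved in the same direction. The ratio of *hmbsb* to *hmbsa* was 1.52, 0.89 and 1.19 at 48 hpf and -0.19, -0.88 and -1.32 at 56 hpf, while *hmbsa* on its own had a difference of -0.46 (adjusted p = 0.336 from limma).

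**Figure D2:**
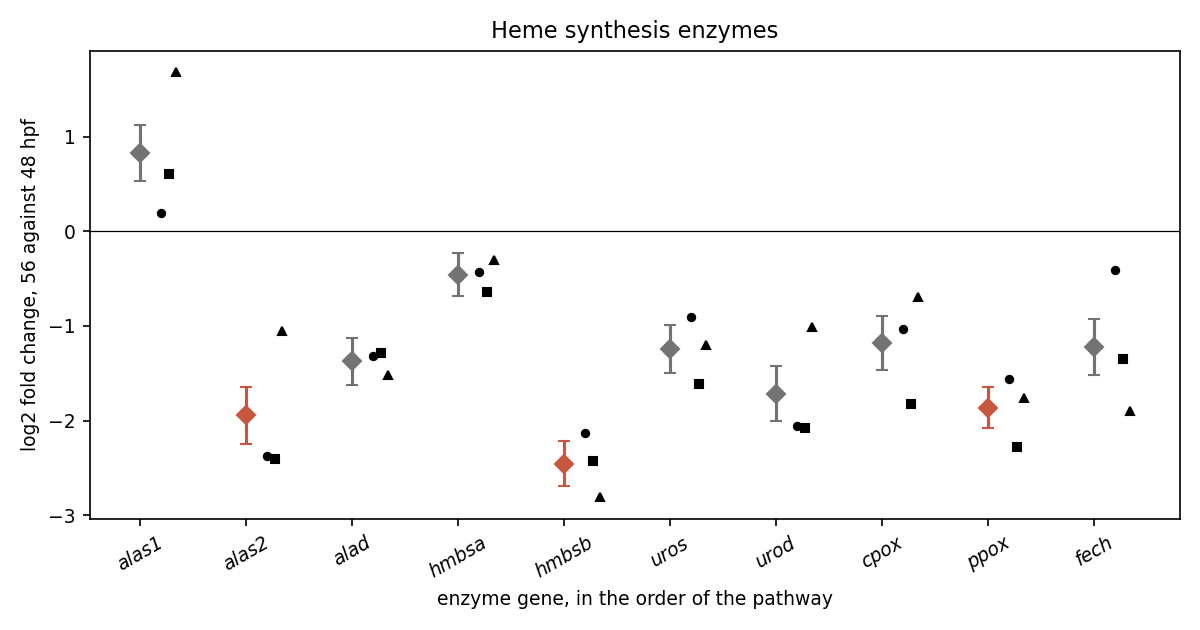
Log2 fold change of the 10 heme synthesis genes, 56 against 48 hpf, in the order of the pathway. Diamonds are the fitted values with their standard errors, red where the adjusted p was under 0.05, and the small black marks are the differences of replicates 1 (circle), 2 (square) and 3 (triangle). *alas1* is the 1 gene above 0, at 0.83, and *hmbsb* is the lowest, at -2.46.

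Neither gene of the iron importers was called. *tfr1a* (ENSDARG00000058784), the transferrin receptor that is mutated in the anemic *chianti* fish, had 1856, 2151 and 1505 normalized counts at 48 hpf and 930, 1539 and 1474 at 56 hpf. The stages overlapped, since replicate 2 at 56 hpf was above replicate 3 at 48 hpf. The fitted difference was -0.50 (95% interval -1.06 to 0.05, adjusted p = 0.308 from limma), the smallest of the 10 genes. *slc25a37* (ENSDARG00000073743) encodes mitoferrin 1, which brings iron into the mitochondrion of red cells and is mutated in the *frascati* fish. It had 479, 303 and 241 normalized counts at 48 hpf and 279, 88.7 and 126 at 56 hpf. Replicate 1 was the highest pool at both stages, and its 56 hpf value lay above replicate 3 at 48 hpf, so the stages overlapped. The difference was -1.16 (95% interval -1.83 to -0.49, adjusted p = 0.104 from limma). It was called without replicate 1 at both stages and without replicate 1 at 56 hpf.

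Among the wider genes of iron and of the mitochondrion no gene was called. Of 16 genes tested from a list for iron uptake, storage and export, 11 had a difference below 0, and the median was -0.17. *tfr1b* was counted in both numbers under each of its identifiers, with differences of -0.02 and -0.24. The 14 genes tested from a list for mitochondrial heme and iron-sulfur handling had a median of -0.01. In the iron list, the pools of 2 of the 16 genes lay higher at 56 hpf without overlap, beside 13.1% of all genes tested. Those of 1, *ftr82*, lay lower (difference -0.94, adjusted p = 0.117 from limma), beside 11.3% of all genes tested. *ftr82* is described as a member of the finTRIM family, and it is counted among the 16 and the 11 all the same. Apart from it, no gene of this list had pools wholly lower at 56 hpf. The 2 higher ones were *slc40a1*, which encodes the iron exporter ferroportin (difference 1.01, adjusted p = 0.0621 from limma), and *aco1*, which encodes iron regulatory protein 1 (1.05, adjusted p = 0.105 from limma). *abcb10*, which encodes a mitochondrial transporter that partners mitoferrin 1 in mouse red cells, had a difference of -0.44 (adjusted p = 0.288 from limma). *slc25a28*, which encodes the mitoferrin of other tissues, had 0.43 (adjusted p = 0.399 from limma), and its ratio to *slc25a37* within a pool overlapped between the stages.

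The membrane genes fell most of the 10. *slc4a1a* (ENSDARG00000012881) encodes band 3, the anion exchanger that carries bicarbonate across the red cell membrane and anchors its skeleton, and is mutated in the *retsina* fish. It had 6753, 9330 and 6467 normalized counts at 48 hpf and 1157, 1319 and 1609 at 56 hpf. The lowest 48 hpf pool was thus several times the highest 56 hpf pool, and the mean fell from 7517 ± 1577 (SD, n = 3 pools) to 1362 ± 229 (SD, n = 3), 5.52-fold lower. The difference was -2.46 with a standard error of 0.22 (adjusted p = 0.0103, limma). *epb41b* (ENSDARG00000029019) encodes protein 4.1, which joins actin and spectrin to the membrane, and is mutated in the *merlot* fish. It had 3814, 4782 and 4411 normalized counts at 48 hpf and 1159, 896 and 1023 at 56 hpf, 4.23-fold lower in the mean. Its pools lay close together within each stage, with 4336 ± 488 (SD, n = 3) and 1026 ± 131 (SD, n = 3). The difference of *epb41b* was -2.08 with a standard error of 0.21 (adjusted p = 0.0133, limma). With pools or replicate numbers left out, both genes were called in 8 of 9 fits, and neither without replicate 2 at both stages (adjusted p = 0.0679 for *slc4a1a* and 0.121 for *epb41b*, limma). The adjusted p over 22 alternatives ran from 2.63e-15 to 0.0679 for *slc4a1a* and from 3.89e-11 to 0.146 for *epb41b*.

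Of 16 genes tested from a list of red cell membrane and skeleton genes, 2 were called lower, *slc4a1a* and *epb41b* themselves, and 1 higher, *rhcga*. The median difference was -0.38. Of the 16 genes, 11 had a difference below 0 and 5 above. Pools lay lower at 56 hpf without overlap for 8 of them and higher for 2, beside 11.3% and 13.1% of all genes tested. Some other genes of the list had lower values at 56 hpf without passing the test. They were the spectrin gene *sptb* (-1.21, adjusted p = 0.0991 from limma), the adducin gene *add2* (-1.38, adjusted p = 0.0741), the dematin gene *dmtn* (-1.27, adjusted p = 0.0625) and the Rh protein gene *rhd* (-1.58, adjusted p = 0.0681), each with pools that did not overlap. Against these, *rhag*, which encodes the Rh-associated glycoprotein, had 4392, 3817 and 6613 normalized counts at 48 hpf and 5230, 7773 and 7685 at 56 hpf (difference 0.50). *epb41a*, the second gene of protein 4.1 in fish, had no more than 97.8 normalized counts in any pool, with a difference of -0.65, and the ratio of *epb41b* to *epb41a* within a pool was lower at 56 hpf in every pool (difference -1.43).

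**Figure D3:**
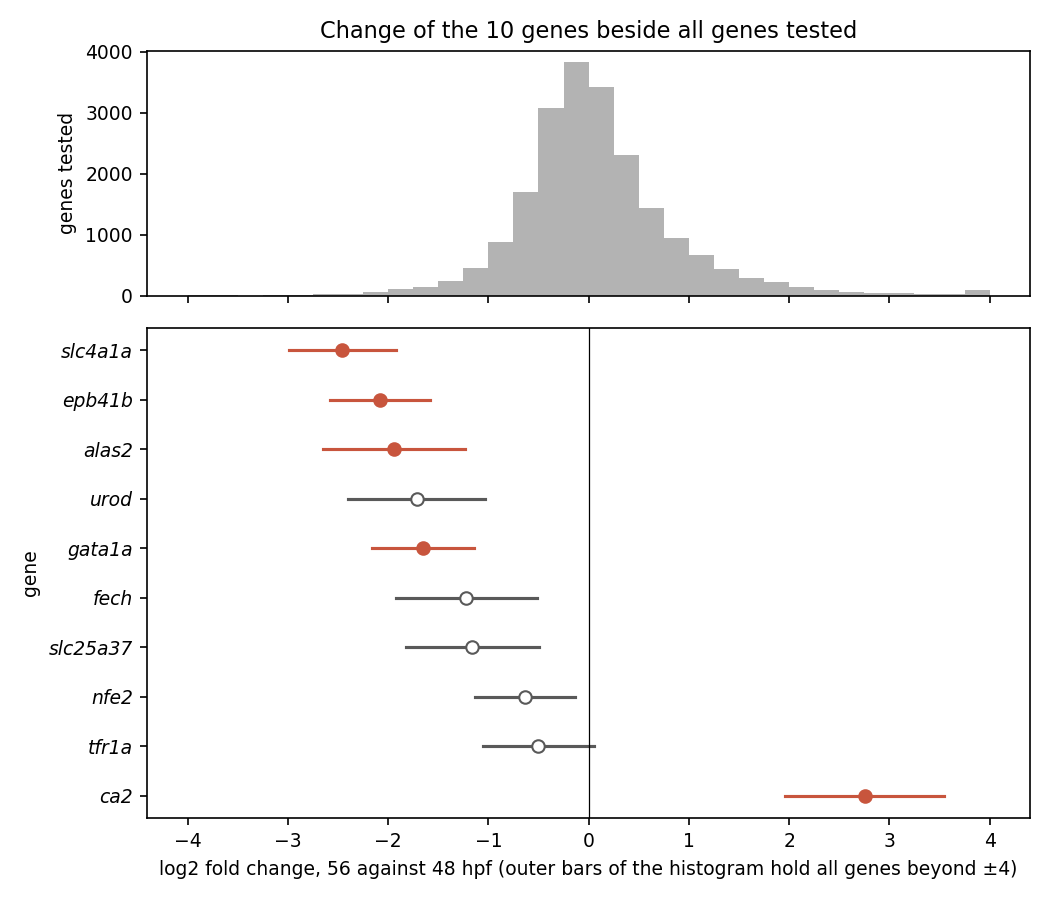
Upper panel, histogram of the log2 fold changes of the 20805 genes tested. Lower panel, fitted log2 fold change of each of the 10 genes with its 95% interval, filled red where the adjusted p was under 0.05 and open where it was not. *slc4a1a* is the lowest at -2.46, the interval of *tfr1a* crosses 0, and *ca2* stands alone on the other side at 2.76.

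*ca2* (ENSDARG00000014488) went the other way. It encodes a cytosolic carbonic anhydrase, the kind of enzyme that makes bicarbonate in red cells and that in zebrafish is also used by ionocytes, the ion-transporting cells of the skin. It had 344, 104 and 269 normalized counts at 48 hpf and 1446, 1417 and 1477 at 56 hpf, with a spread at 48 hpf that was gone at 56 hpf. The mean rose 6.05-fold, from 239 ± 123 (SD, n = 3 pools) to 1447 ± 30.3 (SD, n = 3), which gave a difference of 2.76 with a standard error of 0.33 (adjusted p = 0.0229, limma). With pools or replicate numbers left out, *ca2* was called in 6 of 9 fits. Without replicate 2 at both stages it was not (adjusted p = 0.0508, limma, in a range of 4e-12 to 0.0618 over 22 alternatives), nor without replicate 2 or replicate 3 at 56 hpf.

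*cahz*, the carbonic anhydrase gene known for its expression in zebrafish red cells, followed the other genes. It had 3065, 3438 and 2495 normalized counts at 48 hpf and 831, 965 and 1019 at 56 hpf, with a difference of -1.67 and a standard error of 0.20 (adjusted p = 0.0231, limma). The ratio of *ca2* to *cahz* within a pool was -3.15, -5.03 and -3.21 on the log2 scale at 48 hpf and 0.80, 0.55 and 0.53 at 56 hpf. Of the 13 genes tested whose description names a carbonic anhydrase, *ca2* was the 1 called higher and *cahz* the 1 called lower. *ca15a*, a carbonic anhydrase gene of zebrafish ionocytes, had 74, 23 and 1 reads at 48 hpf and 332, 1091 and 1280 at 56 hpf (adjusted p = 0.0812 from limma).

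Most genes of a list for ionocytes and epidermis had higher values at 56 hpf. *foxi3a* and *foxi3b*, which encode transcription factors of ionocytes, had differences of 4.89 and 3.27 (adjusted p = 0.0913 and 0.0794 from limma). *foxi3a* had 19, 8 and 0 reads at 48 hpf and 65, 295 and 283 at 56 hpf. For *foxi3b* these were 114, 120 and 11 and then 460, 574 and 806, so both sizes rest in part on few reads. The ionocyte gene *rhcga*, which had been placed in the membrane list as an Rh glycoprotein, had 3, 3 and 1 reads at 48 hpf and 270, 58 and 239 at 56 hpf (adjusted p = 0.0174 from limma). Of 13 epidermis and ionocyte markers tested, 12 had a difference above 0 and none was called by limma. Their summed level ranged from 167385 to 413600 normalized counts at 48 hpf and from 440149 to 740203 at 56 hpf, and no marker of the list was at 0 in all pools. The keratin gene *krt4* alone made up most of that sum, with 114852 to 303484 normalized counts at 48 hpf and 330303 to 530628 at 56 hpf. The ionocyte gene *rhcgb*, which was under the filter, had lower values at 56 hpf, with 13, 9 and 5 reads at 48 hpf and 3, 1 and 3 at 56 hpf. The part of these cells in the change of *ca2* was not tested.

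The genes other than *ca2* had fitted differences of unlike size, and the comparison below restates these within each pool. Each was compared within its pool with the mean of the other genes, leaving out *ca2*, on the log2 scale. Relative to that mean, *slc4a1a* stood at 2.80 ± 0.24 (SD, n = 3 pools) at 48 hpf and at 1.71 ± 0.30 at 56 hpf, and *epb41b* moved from 1.92 ± 0.29 to 1.25 ± 0.11. Both thus stood lower relative to the others at 56 hpf, with no overlap between the stages. *tfr1a* moved from 0.52 ± 0.11 to 1.62 ± 0.53 and *nfe2* from -1.50 ± 0.07 to -0.54 ± 0.28, again without overlap, the other way. The relative levels of *gata1a*, *alas2*, *urod*, *fech* and *slc25a37* overlapped between the stages. The 4 separated genes each had a two-sided exact permutation p of 0.1, or 0.225 after adjustment over the 9 genes compared. The value of 0.1 is the smallest that 3 pools against 3 allow, so no such difference can pass 0.05 in this design. The comparison was chosen after the values were seen.

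Pairs of related genes were compared in the same way, with 7 pairs in all, chosen after the values were seen. For 5 of them (*alas2* to *alas1*, *hmbsb* to *hmbsa*, *epb41b* to *epb41a*, *ca2* to *cahz* and *gata1a* to *gata2a*) the ratio did not overlap between the stages, each with a two-sided exact permutation p of 0.1, or 0.14 after adjustment over the 7 pairs. For *tfr1a* to *tfr1b* and *slc25a37* to *slc25a28* it overlapped (p = 0.3, exact permutation test). Of the identifiers of *tfr1b*, the one with more reads was used. Counts were not divided by transcript length, so a ratio above or below 0 does not say which gene of a pair had more RNA, and its movement between stages is what was measured.

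**Figure D4:**
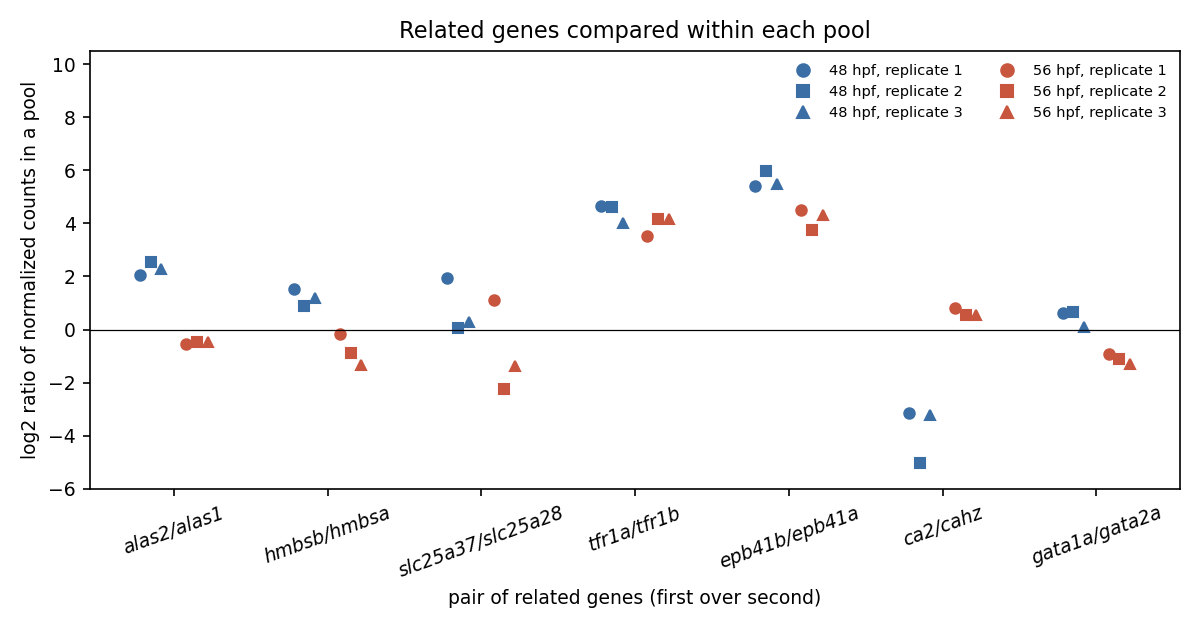
Log2 ratio of normalized counts within each pool for 7 pairs of related genes, the first named over the second. Blue marks are 48 hpf pools, red marks 56 hpf pools, and the shape gives the replicate number. The *alas2* to *alas1* ratio differed by -2.77, with the 3 red marks nearly on top of each other, and the *ca2* to *cahz* ratio by 4.42.

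The receptor for erythropoietin, the hormone that keeps red cell precursors alive, was listed under 2 identifiers of the gene *epor*. The one with more reads had 60, 117 and 32 reads at 48 hpf and 8, 13 and 25 at 56 hpf, with a difference of -2.23 (adjusted p = 0.109 from limma), and the other had at most 15 reads in a pool (-1.86, adjusted p = 0.305). Any reads that aligned to both identifiers were not counted, since only unique alignments were kept. How many there were was not measured, so both values are uncertain. Downstream of the receptor, *jak2a* had a difference of -0.56, *jak2b* -0.29, *stat5.1* 0.43 and *stat5.2* 0.00. *kita*, which encodes a receptor of progenitors and pigment cells, had 0.36 and its ligand gene *kitlga* 0.32. None of these 8 was called by limma, and the unadjusted p was under 0.05 for 2 of them, the *epor* identifier with more reads and *jak2a*. The median of the list was -0.15.

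The globin genes, which encode the protein chains that hold heme, had lower values too. All 7 globin genes tested had a difference below 0, with a median of -1.56, and 1 was called. This was *hbbe3*, with 5838, 6701 and 3110 normalized counts at 48 hpf against 158, 161 and 131 at 56 hpf (difference -5.04, adjusted p = 0.00187 from limma). The others lay between -1.74 for *hbbe1.1* and -1.40 for *hbae3*, with *hbbe1.2* at -1.48, *hbbe2* at -1.46 and the 2 genes named *hbae1* at -1.70 and -1.56. Between same-numbered pools, the differences of these 6 ran from -3.76 to -2.53 in replicate 1 and from -0.80 to 0.53 in replicate 3. The value above 0 was that of *hbbe2*, whose stages overlapped. In replicate 1 at 56 hpf these 6 globin genes were far lower than in replicates 2 and 3, with 2662 against 9851 and 13732 normalized counts for *hbae3*. *slc4a1a*, *epb41b*, *gata1a* and *urod* did not show that gap between the 56 hpf pools, while *tfr1a* did in part (930 against 1539 and 1474). For *alas2* replicate 1 was also the lowest 56 hpf pool (749 against 990 and 1301). *fech* (784 against 411 and 444) and *slc25a37* (279 against 88.7 and 126) went the other way in that pool. The adult globin genes on the list had at most 2 reads in a pool. Reads shared between globin copies are not in these counts.

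Of the 14 red cell enzyme genes tested, *cahz* was called lower and *ca2* higher, and the median difference was -0.07. *blvrb* and *blvra*, which encode the enzymes that reduce the breakdown product of heme, had differences of -1.38 and -1.66 (adjusted p = 0.0687 for each, limma). *prdx2*, a peroxide-removing enzyme gene of red cells, had 634 normalized counts in replicate 1 at 56 hpf against 2876 and 2952 in replicates 2 and 3. This was a gap like that of the globins, and the difference was -0.29. Such a gap was not limited to blood genes. The epidermis marker *icn* had it (1536 against 6513 and 5135), while the myocardium marker *myl7* did not (48366 against 46729 and 49857). Its cause was not tested. *bpgm*, whose product sets the oxygen affinity of hemoglobin in mammals, had -0.62.

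Other blood cells were read beside the red cells. Of 17 white cell markers tested, 3 were called, all lower at 56 hpf. They were *lyz* (-2.07, adjusted p = 0.0195 from limma), *mpx* (-1.63, adjusted p = 0.0393) and *cpa5* (-2.09, adjusted p = 0.028), which mark neutrophils and mast cells. All 3 calls were lost without replicate 2 at both stages, where the adjusted p was 0.13 for *lyz*, 0.215 for *mpx* and 0.173 for *cpa5*, and also without replicate 2 or replicate 3 at 56 hpf alone. That of *mpx* was lost as well with edgeR's quasi-likelihood test (adjusted p = 0.0538), in a range of 1.02e-05 to 0.391 over 22 alternatives. The median of the white cell list was -0.63, and of the macrophage genes *csf1ra* (0.70), *mpeg1* (0.38), *marco* (0.11) and *mfap4* (-0.61) none was called by limma. Of 8 thrombocyte markers none was called by limma, and their median was -0.50, with *itga2b* at -2.59 (adjusted p = 0.133 from limma) and *gp1bb* at -0.65. The pools of 3 of them, *thbs1b* (1.15), *nbeal2* (1.13) and *itgb3b* (0.45), lay higher at 56 hpf without overlap and those of 1, *gp1bb*, lower. Over all genes tested 13.1% lay higher and 11.3% lower in this way. The summed level of the thrombocyte list was 6737 to 9200 normalized counts at 48 hpf and higher, 11262 to 14532, at 56 hpf. Most of that sum came from *thbs1b* (3544 to 6782 at 56 hpf) and *nbeal2* (5586 to 6937), while 5 of the 8 markers had a difference below 0. The summed level of the white cell list was 11101 to 19510 normalized counts at 48 hpf and 5395 to 6953 at 56 hpf, so its pools did not overlap. *lyz* alone gave 5489 to 11277 of it at 48 hpf and 1723 to 2767 at 56 hpf.

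The pools also differed in tissue that is not blood. The hearts carried their defining markers. In the order of the replicate numbers, *myl7* had 34100, 84504 and 103877 normalized counts at 48 hpf and 48366, 46729 and 49857 at 56 hpf. Of 12 myocardium markers 11 had a difference below 0 (median -0.62) and of 9 endocardium and vessel markers 8 did (median -0.44), with none called by limma in either list. The replicates did not agree on this. Between the replicate 1 pools, only *vmhc*, *cmlc1*, *actc1a*, *kdrl*, *tek* and *fli1a* of these markers were lower at 56 hpf, and all the others were higher. Of 15 skeletal muscle markers 10 were called, all higher at 56 hpf (median 4.17), and of 11 liver and yolk markers 10 had a difference above 0 with none called (median 1.12). Between the replicate 2 pools *tfa*, *apoa1a*, *apoa1b*, *serpina1l*, *fgg*, *ambp* and *ttr* of the liver and yolk markers were lower at 56 hpf, and the others tested were higher. The pools of 1 of the 11 lay higher at 56 hpf without overlap, beside 13.1% of all genes tested. To set the red cell genes beside heart tissue, the libraries were scaled to the endocardium and vessel markers and then to the myocardium markers, both chosen after the values were seen. These scales moved the median difference of all genes tested by 0.21 and 0.64. The endocardial scale included *klf2a*, the 1 of its 9 markers with a difference above 0 (1.32, adjusted p = 0.0625 from limma). The paper reports that *klf2a* rises between these stages. A scale without it was not tried. On the endocardial scale the median difference of the 10 genes was -1.23, all 9 genes other than *ca2* remained below 0, and *slc4a1a* (-2.25, adjusted p = 0.0481 from limma) and *ca2* (2.97, adjusted p = 0.0234) were called. On the myocardial scale the median was -0.79, *nfe2* and *tfr1a* turned to 0.015 and 0.15, and again *slc4a1a* (-1.81, adjusted p = 0.0392 from limma) and *ca2* (3.40) were called. The medians of the heme synthesis and globin lists stayed below 0 on it, at -0.66 and -0.91, while those of the regulator and membrane lists turned to 0.33 and 0.27 and that of the white cell list to 0.02. The part of muscle, epidermis or liver RNA in the lower values of the red cell genes was not tested.

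**Figure D5:**
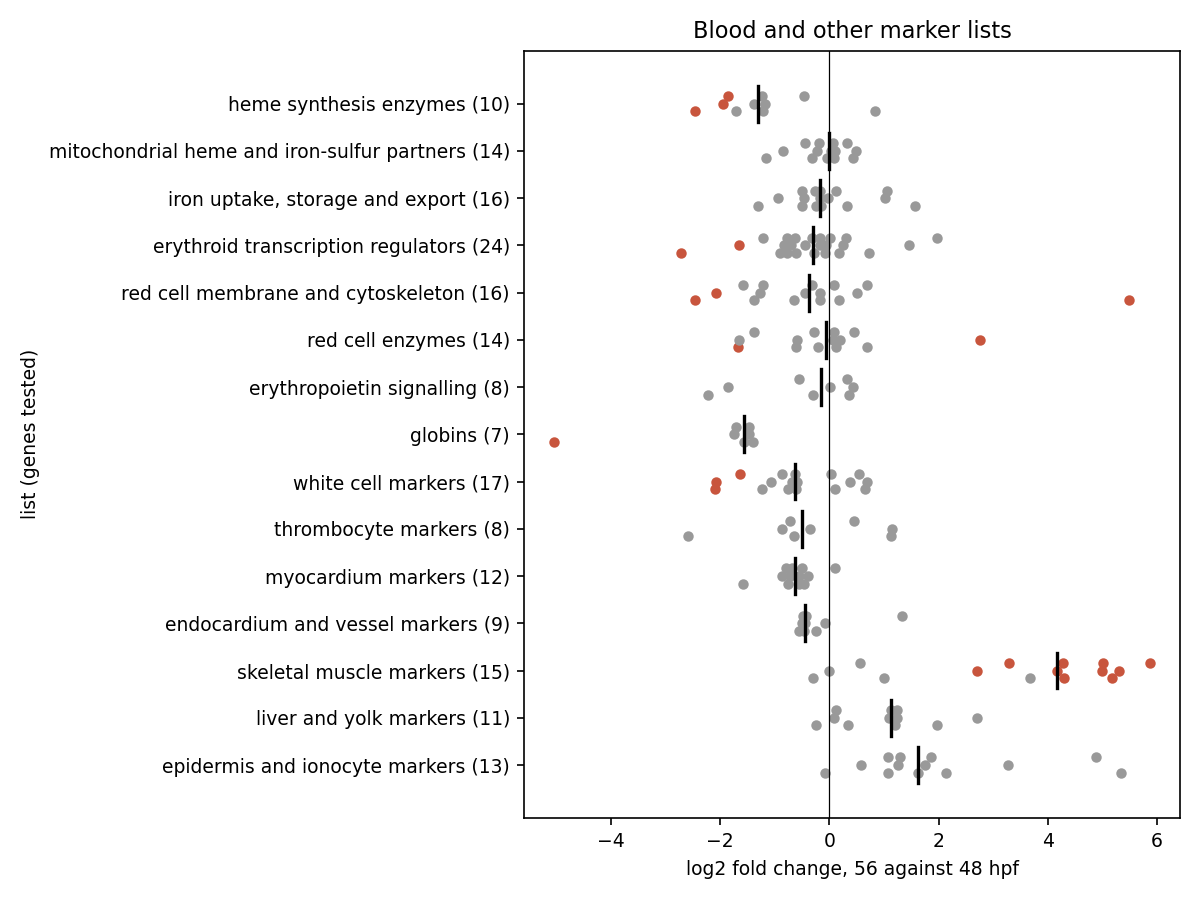
Log2 fold change, 56 against 48 hpf, of every gene tested in each of 15 lists, with the number tested in brackets. Each point is a gene, red where the adjusted p was under 0.05, and the black bar is the median of the list. The heme synthesis and globin lists lie to the left with medians of -1.31 and -1.56, and the skeletal muscle list to the right with a median of 4.17.

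The genes whose profile over the 6 pools was nearest to that of the 10 genes were found by the root mean square difference between centred log2 profiles, among 12509 other genes with a mean of at least 100 normalized counts. Against the mean profile of all 10 genes, which includes the opposite movement of *ca2*, the nearest were *ndc80*, *slit3*, *nprl3*, *kif20ba*, *tacc3*, *kif11*, *AMPD2 (2 of 2)* and *cdh6*, at 0.08 to 0.11 on the log2 scale. Among them *ndc80*, *kif20ba*, *tacc3* and *kif11* encode proteins of the mitotic spindle and its motors. When *ca2* was left out of the mean, a choice made after its values were seen, the nearest were *si:dkey-25o16.2*, *SLC29A1 (2 of 2)*, *cahz*, *cdh6*, *alad*, *AMPD2 (2 of 2)*, *TRMT61B* and *uros*, at 0.11 to 0.20. Here 3 of the 8 were genes of the lists above, *cahz*, *alad* and *uros*. These are descriptions over 6 libraries, and profiles that separate the stages will be near each other for any gene that moves between them.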

How the data were processed

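RNA from 6 pools of hearts was analysed. Per the labels and the methods, reads had been aligned to Zv9 and unique alignments counted on Ensembl genes, and the authors deposited for each gene a signal, its reads over a library size factor. The sample labels and the paper's methods differ on the library kit, the instrument and the software versions. The labels name Bowtie2 2.1.0 and HTSeq 0.5.4p3, and the methods name earlier versions of bowtie and HTSeq. The values were whole multiples of 1 read for 100% of the 29978 genes in each library (tolerance 0.01 reads), which gave back the reads. Gene names are those of the files. Size factors were drawn anew from the 6 libraries by the median of ratios, since those deposited differ from them by -0.12 to -0.13 on the log2 scale in the 56 hpf pools. Low genes were removed with filterByExpr of edgeR (minimum count 10, minimum total 15, blocked design), which all 10 genes passed. The test was limma, with its trend option, on log2(normalized count + 1). The replicate number was a block because the methods state an adjustment for experiments, and it was assumed to name the experiment. The sample titles carry a further code for each library, whose meaning is not stated. It differs within every same-numbered pair and is shared by replicate 1 at 48 hpf and replicate 3 at 56 hpf, so the pairing is not established. Nothing says that the pools came from separate crosses, so p-values measure a spread of pools only. In a fit with the replicate block it is the spread of the differences between same-numbered pools. Without the block it is the spread between pools of a stage. With 3 reads taken as the floor of detection, it lay between 2.13 and 4 normalized counts, for counting error only.

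The genes and lists were chosen with earlier results of these data known. The genes named are the 10 genes, each called gene of the pathway lists, every tested gene of the heme, erythropoietin and globin lists, and the 8 with the nearest profile. Other list genes that are named were chosen after their values were seen. The fits were tried on simulated data, with a fixed fold for the changed genes and no differences between replicates or in tissue. That trial does not bear on such differences in these pools. Alternatives were edgeR's quasi-likelihood and likelihood ratio tests and DESeq2 on the recovered reads, no block, other scales, filters and pseudocounts, a threshold of 0.01, and leaving out pools. With a single pool left out there was no block, and with a replicate number left out there was. Software: DESeq2 1.42.0, edgeR 4.0.16, limma 3.58.1 (R 4.3.3).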

Additional observations from a re-analysis of the deposited data

How the results depend on the processing

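None of the 10 genes changed direction in the 22 alternatives, other than *nfe2* (0.015) and *tfr1a* (0.15) on the myocardial scale. On that scale *hmbsa* (0.19), *jak2a* (0.095) and *jak2b* (0.36) also turned, and the median of the 10 genes moved to -0.79. Of the 10 genes, 4 were called by the quasi-likelihood test, 4 with at least 10 counts in every library, 8 by the likelihood ratio test, 8 by DESeq2, 2 on the endocardial scale, 2 on the myocardial scale and 0 at a threshold of 0.01. Leaving out pools gave 0 to 8 calls, a median between -1.64 and -1.28, and 53 to 2271 calls over all genes. Over all genes, 225 were called by limma, 156 by edgeR's quasi-likelihood test, 1741 by the likelihood ratio test, 1509 by DESeq2, 346 with no filter, 137 with at least 10 counts in every library, 27 at a threshold of 0.01, 145 on the endocardial scale and 1258 on the myocardial scale. Of the 10 heme synthesis genes 3 were called by limma, 8 by the likelihood ratio test and by DESeq2, and 0 to 8 when pools were left out. With the values on the deposited scale the median of all genes moved by 0.12, and the same 5 of the 10 genes were called.

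With no replicate block limma called 560 genes and 6 of the 10, the sixth being *urod* (adjusted p = 0.0156), and the quasi-likelihood test, run so after the data were seen, 516. Deviations of same-numbered pools had correlations of 0.03, 0.19 and -0.05 across genes, so the replicate block rests on the methods and not on the data. *stat5.2*, at 0.00, ran from -0.119 to 0.086 when pools were left out and was -0.0015 by the quasi-likelihood test with no replicate block, and *kita* ran from -0.082 without replicate 3 to 0.86. The cause of these shifts was not tested. With 3 pools a stage, changes as small as those of *nfe2* and *tfr1a* were not called.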
